A study of Mus musculus with 19 samples.

Results

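The let-7 family was followed in mouse sperm through the 10 hairpin genes Mirlet7a-1, Mirlet7b, Mirlet7c-1, Mirlet7c-2, Mirlet7d, Mirlet7e, Mirlet7f-1, Mirlet7f-2, Mirlet7g and Mirlet7i, out of 2198 miRNA hairpins of the GENCODE annotation. A read was taken for a hairpin when it was 20 to 24 nt long and matched its sense strand, exactly where an exact match existed and otherwise with 1 mismatch. A read that fitted several hairpins was divided equally among them. The hairpins were chosen by name and not by a cut-off on measured values, although earlier results of these data were known. Small RNA from sperm was sequenced in 19 libraries by 2 methods, to ask whether exposure of male mice to dicyclohexyl phthalate (DCHP), a plasticizer, altered sperm small RNAs. All mice were wild type, and the study's methods name the strain C57BL/6J. DCHP was given by oral gavage from 8 weeks of age for 4 weeks, and control mice received corn oil vehicle. The labels name the exposure group in the sample titles, whereas their treatment entry reads DCHP for every library, controls included. RNA of 15 to 50 nt was cut from a gel and libraries were made with or without prior enzyme treatment. For PANDORA-seq, T4PNK repaired the ends of the RNA and AlkB removed some methyl groups from its bases. Traditional RNA-seq used no such treatment. There were 4 PANDORA-seq control, 5 PANDORA-seq DCHP, 5 traditional control and 5 traditional DCHP libraries. A figure legend of the study describes the columns of its PANDORA-seq data as biological replicates, whereas no source says whether the same number marks the same mouse in both methods. The p-values measure the spread between these libraries.

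let-7 miRNAs are among the most conserved animal miRNAs and are known for promoting differentiation, restraining growth genes such as Lin28, Hmga2 and Myc family members, and rising as tissues mature. A hairpin is cut by Drosha and Dicer into a short duplex, and one strand, for let-7 the 5p strand, is loaded into an Argonaute protein. The seed at bases 2 to 8 sets most of the target choice, while the 3' end varies between cells through trimming and the addition of single bases. Mature sperm carry small RNAs from spermatogenesis and from vesicles of the epididymis, in which let-7 is known to be abundant.

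The 10 hairpins gave 8 distinct 5p sequences, because Mirlet7c-1 and Mirlet7c-2 share one and Mirlet7f-1 and Mirlet7f-2 share another. The 5p sequences are shown since nearly all reads came from them and since they show which members could be told apart. The sequences are from RefSeq, build GRCm38.p6, written 5' to 3' with the seed, bases 2 to 8, in capitals.
let-7a-5p: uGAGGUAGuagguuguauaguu
let-7b-5p: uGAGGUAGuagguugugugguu
let-7c-5p: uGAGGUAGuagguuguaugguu
let-7d-5p: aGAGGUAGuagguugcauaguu
let-7e-5p: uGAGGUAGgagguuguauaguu
let-7f-5p: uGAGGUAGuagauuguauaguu
let-7g-5p: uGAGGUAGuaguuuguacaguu
let-7i-5p: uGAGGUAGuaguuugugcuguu

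All 8 have the seed GAGGUAG, which 11 of 1679 mature miRNA names in the RefSeq table carry. The other 3 names are let-7k, miR-1961 and miR-98-5p. Counted from 1 at the 5' end, and with the base of let-7a given first, let-7c differs from let-7a by A19G, let-7e by U9G and let-7f by G12A, each a single base. let-7b differs by A17G and A19G, let-7d by U1A and U16C, and let-7g by G12U and U18C. let-7i differs most, by G12U, A17G, U18C and A19U. A single misread base can therefore turn a let-7f read into an exact let-7a read. Across other miRNAs with A at base 12, the A-to-G mismatch there was seen in 0.379% of traditional reads and 0.251% of PANDORA-seq reads.

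The hairpins lie at 7 places in the genome (GRCm38, the mm10 build of the labels). Mirlet7a-1 (chr13:48538179-48538272), Mirlet7f-1 (chr13:48537829-48537917) and Mirlet7d (chr13:48536012-48536114) lie on the minus strand within 2261 bases, in exons of the lincRNA 6720427I07Rik. Mirlet7c-2 (chr15:85706603-85706697) and Mirlet7b (chr15:85707319-85707403) lie on the plus strand within 801 bases, in exons of Lncppara. Mirlet7c-1 (chr16:77599657-77599750, plus) is in an intron of Mir99ahg. Mirlet7e (chr17:17830352-17830444, plus) is in an intron of Spaca6, Mirlet7g (chr9:106178840-106178927, plus) in an intron of Wdr82, and Mirlet7f-2 (chrX:151912346-151912428, plus) in an intron of Huwe1. Mirlet7i (chr10:122985640-122985724, minus) is in an exon of D630033A02Rik.

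Library totals ran from 21588335 to 56506344 reads. PANDORA-seq libraries held 33684 to 99640 miRNA hairpin reads of 20 to 24 nt, of which 970 to 11322 were given to the 10 let-7 hairpins. Traditional libraries held 979716 to 8195816, of which 125731 to 817490 were given to them. These sums leave out the let-7a reads divided to Mirlet7a-2, a hairpin outside the 10. With those included, let-7 5p reads were 1043.5 to 12021 in PANDORA-seq and 135966 to 895455 in traditional libraries. A single annotated hairpin, Mir6240, made up 27.8% to 73.6% of the hairpin reads of PANDORA-seq libraries and 0.0722% to 0.567% of those of traditional libraries. Levels are therefore given first per 1000 miRNA hairpin reads, the denominator of the tests. A second denominator was the total over the 636 hairpins of which at least 50% of exactly matching reads were 20 to 24 nt long, which leaves out Mir6240. Of the male germ cell markers, 2 of 5 hairpins were at 0 in every PANDORA-seq DCHP library and 3 of 5 in every PANDORA-seq control library. Of the 6 muscle markers 2 were at 0 throughout each PANDORA-seq group. Of the 4 blood markers 2 were at 0 throughout PANDORA-seq control and 1 throughout PANDORA-seq DCHP libraries. No listed marker was at 0 throughout a traditional group. The summed germ cell markers were 0.767 to 6.54 per 1000 reads of the second denominator over all libraries, the 5 epididymal epithelium markers 6.03 to 47.5, the 6 muscle markers 11.0 to 89.7, the 4 blood markers 0 to 0.687, and Mir122 of liver 12.9 to 432. In bulk sperm RNA, fewer cells of a type and less RNA per cell cannot be told apart.

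Summed over the 10 hairpins, let-7 took a smaller part of the miRNA hairpin reads with PANDORA-seq than with traditional RNA-seq. In PANDORA-seq control libraries 1 to 4 it was 40.9, 43.9, 46.7 and 61.4 per 1000 hairpin reads, and in PANDORA-seq DCHP libraries 1 to 5 it was 38.4, 64.0, 10.2, 37.8 and 129. In traditional control libraries 1 to 5 it was 85.8, 85.4, 121, 158 and 109, and in traditional DCHP libraries 148, 157, 82.1, 136 and 273. DCHP library 5 was the highest of its group by both methods and DCHP library 3 the lowest by both. The PANDORA-seq means were 48.2 ± 9.07 (SD, n = 4) for control and 55.8 ± 44.9 (SD, n = 5) for DCHP sperm. The traditional means were 112 ± 30.0 for control and 159 ± 69.9 for DCHP sperm (SD, n = 5 for each). Control groups did not overlap between the methods. DCHP groups did, through PANDORA-seq library 5. In that library Mir6240 made up 27.8% of hairpin reads, against 46.4% to 73.6% in the other PANDORA-seq DCHP libraries. The part of Mir6240 in this value was not tested.

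The denominator decided the size of this difference and, in control sperm, also its direction. Per 1000000 deposited reads the let-7 sum was 54.2 to 108 in PANDORA-seq control and 3693 to 13432 in traditional control libraries, and 24.4 to 257 against 4841 to 25269 in DCHP libraries. The ratio of the means was 91.1 in control and 108 in DCHP sperm, higher in traditional RNA-seq. Per 1000 reads of the second denominator, the sum was instead 148 to 275 in PANDORA-seq control against 85.9 to 162 in traditional control, and 91.0 to 242 against 83.5 to 278 in DCHP libraries. These sums are a description, with no test.

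**Figure D1:**
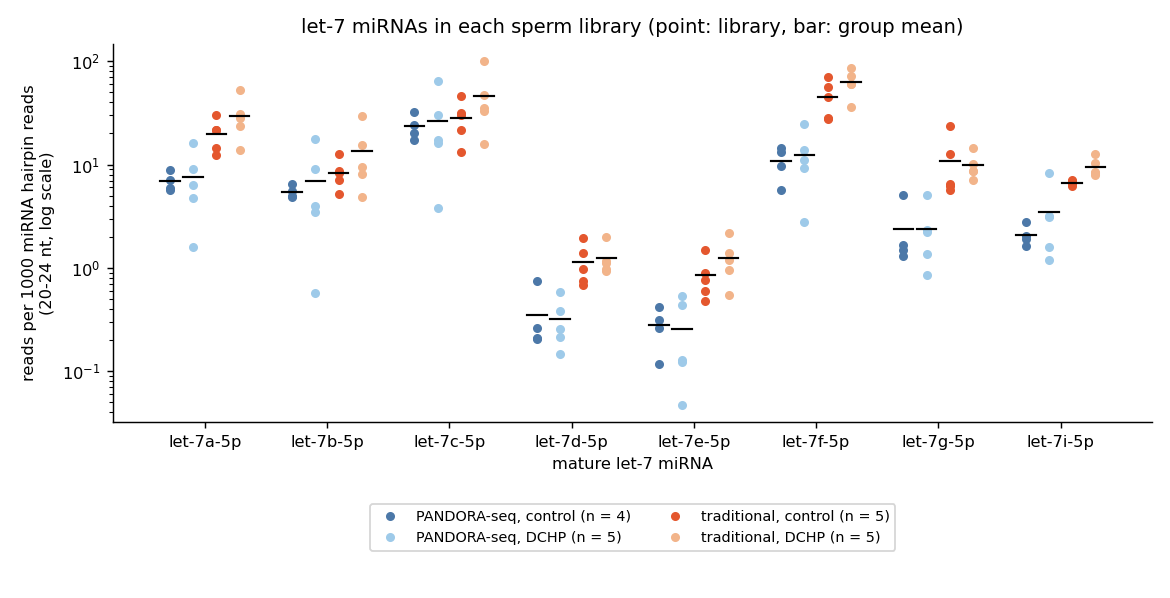
Level of each mature let-7 5p miRNA in each of the 19 libraries, in reads per 1000 miRNA hairpin reads of 20 to 24 nt on a log axis. Points are libraries and black bars group means. let-7d and let-7e sit lowest in every group, and let-7c and let-7f highest on average.

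Among the 8 mature sequences, let-7c was the most abundant with PANDORA-seq and let-7f with traditional RNA-seq. All 8 are 22 nt long, so their levels compare per length. let-7c made up 36.6% to 54.7% of let-7 5p reads in PANDORA-seq control and 34.2% to 46.7% in PANDORA-seq DCHP libraries, against 14.6% to 26.3% in traditional control and 17.8% to 33.5% in traditional DCHP libraries. The ranges of the methods did not overlap. let-7f made up 13.0% to 26.5% and 18.1% to 26.9% by PANDORA-seq, against 30.1% to 42.7% and 28.7% to 44.4% by traditional RNA-seq, control and DCHP in turn, again without overlap. These shares are free of the choice of denominator.

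The mean share over the 9 PANDORA-seq libraries fell in the order let-7c at 43.1%, let-7f at 21.8%, let-7a at 13.3%, let-7b at 10.2%, let-7i at 5.54%, let-7g at 4.84%, let-7d at 0.710% and let-7e at 0.480%. let-7c was above let-7f in 9 of 9 libraries and let-7g above let-7d in 9 of 9. The other neighbours changed places in at least 1 library, and let-7d was above let-7e in only 6 of 9. Over the 10 traditional libraries the order was let-7f at 37.0%, let-7c at 23.6%, let-7a at 16.5%, let-7g at 8.38%, let-7b at 6.99%, let-7i at 5.96%, let-7d at 0.920% and let-7e at 0.688%. let-7f was above let-7c in 9 of 10 libraries, the exception being DCHP library 5, where let-7c was 33.5% and let-7f 28.7%. let-7g was above let-7b in 4 of 10 and let-7d above let-7e in 5 of 10, so those neighbours did not differ beyond their spread.

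let-7d was the least abundant of the 3 5p sequences that the chromosome 13 cluster can give. It was 0.354 ± 0.260 (SD, n = 4) per 1000 hairpin reads in PANDORA-seq control libraries, where let-7a was 6.88 ± 1.48 and let-7f 10.8 ± 3.95. In traditional control libraries let-7d was 1.15 ± 0.532 (SD, n = 5), let-7a 19.95 ± 7.002 and let-7f 45.3 ± 18.1. let-7a and let-7f also have a second hairpin outside the cluster, and 5p reads do not tell the hairpins apart, so the output of the hairpins within the cluster cannot be compared. Of the reads given to Mirlet7a-1, Mirlet7c-1, Mirlet7c-2, Mirlet7f-1 and Mirlet7f-2, at most 0.905% fitted that hairpin alone, so the near-equal values of a pair come from the equal division. Reads of Mirlet7b, Mirlet7d, Mirlet7e, Mirlet7g and Mirlet7i fitted that hairpin alone in 96.0% to 99.3% of cases.

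**Figure D2:**
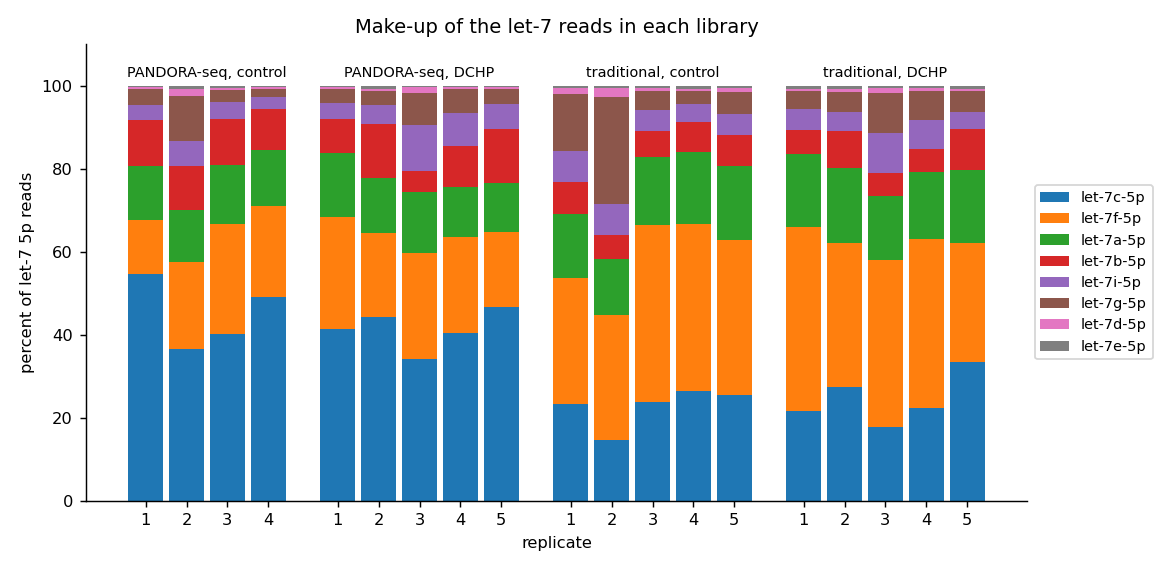
Percent of let-7 5p reads that each of the 8 mature sequences took, 1 bar per library, in 4 groups. The let-7c part is larger in all 9 PANDORA-seq bars than in any traditional bar, and let-7g is widest in traditional control libraries 1 and 2.

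In traditional libraries the share of let-7g had the largest SD of any member, 6.86 on a mean of 8.38% (n = 10). In traditional control libraries 1 to 5 it made up 13.7%, 25.8%, 4.72%, 3.31% and 5.40% of let-7 5p reads, and in PANDORA-seq control libraries 1 to 4 it made up 3.83%, 10.8%, 3.001% and 1.99%. Control library 2 was the highest by both methods. The summed markers of blood cells (Mir451a, Mir144, Mir142 and Mir223) were also highest there, at 0.687 per 1000 reads of the second denominator in traditional control library 2 and 0.585 in PANDORA-seq control library 2, against 0.0788 to 0.336 and 0 to 0.0856 in the other libraries of those groups. In DCHP sperm, library 3 had the highest let-7g share by both methods, 7.84% with PANDORA-seq and 9.81% with the traditional method, and the highest blood markers, at 0.376 and 0.237. The PANDORA-seq blood values rest on few reads. Mir451a had 5 reads and Mir142 had 2 in control library 2, and Mir451a had 3 in DCHP library 3. PANDORA-seq control library 1, with let-7g at 3.83%, had 0 blood marker reads. Mir122, known for its abundance in liver, was 275 and 432 in control library 2, but was also 256.1 and 216 in DCHP library 2, where let-7g was 3.25% and 4.98%. Both were high in traditional control library 1, with Mir122 at 241, and in traditional DCHP library 3, with Mir122 at 128. The part of other cells in the let-7g values was not tested.

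The comparison of methods was tested for each hairpin with edgeR's quasi-likelihood test with Benjamini-Hochberg adjustment over all hairpins tested, and a call required an adjusted p below 0.1 and a fold above 2. In control sperm, 7 of the 10 let-7 hairpins were called lower with PANDORA-seq, beside 39.9% of the 343 hairpins tested, and none was called higher, beside 34.1% of hairpins. Mirlet7g had the largest difference, with a log2 fold change of -2.20 (SE 0.55, edgeR adjusted p = 0.00109). It was 1.67, 5.06, 1.5 and 1.30 per 1000 hairpin reads in PANDORA-seq control libraries 1 to 4 and 12.7, 23.5, 6.16, 5.68 and 6.42 in traditional control libraries 1 to 5, so the groups did not overlap. Mirlet7f-2 followed at -2.07 (SE 0.45, edgeR adjusted p = 0.000268) and Mirlet7f-1 at -2.06. Mirlet7d was at -1.72, Mirlet7i at -1.68, Mirlet7e at -1.57 and Mirlet7a-1 at -1.53, all called. Mirlet7b at -0.61 (edgeR adjusted p = 0.183), Mirlet7c-1 at -0.29 and Mirlet7c-2 at -0.28 were not. The Mirlet7f pair and the Mirlet7c pair each divide nearly the same reads, so the hairpins of a pair are not separate results. With mature sequences as features, let-7b and let-7c were not called and the other let-7 5p sequences were called lower. Mirlet7c-1 was 11.9, 8.61, 10.1 and 16.1 per 1000 hairpin reads in PANDORA-seq control libraries 1 to 4 and 10.8, 6.66, 15.7, 22.9 and 15.2 in traditional control libraries 1 to 5. Those groups overlapped. The median log2 fold change was -1.63 over the members and -1.02 over all hairpins tested.

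In DCHP sperm 7 of the 10 were again called lower, beside 42.6% of the 376 hairpins tested, and they were the 7 of the control comparison. None was called higher, beside 33.5% of hairpins. The 2 comparisons share no library. Mirlet7f-1 and Mirlet7f-2 were at -2.34 (SE 0.53, edgeR adjusted p = 0.00135 for both), Mirlet7e at -2.33, Mirlet7g at -2.05, Mirlet7a-1 at -1.98, Mirlet7d at -1.86 and Mirlet7i at -1.45. Mirlet7b at -0.96, Mirlet7c-1 at -0.82 and Mirlet7c-2 at -0.82 were not called. These 3 depended on the scaling. With TMM scaling all 10 members were called lower, beside 63.8% of hairpins in control and 64.9% in DCHP sperm, and with hairpin reads of any length as library size all 10, beside 63.8% and 64.6%. DESeq2 with its own size factors called 8 of 10 lower in control sperm, beside 50.1%, and 10 in DCHP sperm, beside 47.3%. In DCHP sperm these settings in turn put Mirlet7b at -2.71, -2.58 and -1.46, beside medians over all hairpins of -2.76, -2.51 and -1.31. Mirlet7b was 3.47, 9.01, 0.57, 4.00 and 17.5 per 1000 hairpin reads in PANDORA-seq DCHP libraries 1 to 5 and 9.39, 15.4, 4.88, 8.11 and 29.6 in traditional DCHP libraries, lower by PANDORA-seq in each of the 5 same-numbered pairs although the groups overlapped. Libraries with the same number deviated together between the methods, and with the replicate number as a block all 10 members were called lower in DCHP sperm, beside 48.4% of hairpins, while 7 were called lower in control sperm, beside 41.4%. Without PANDORA-seq DCHP library 5 and with no block, all 10 were called as well, beside 50.9% of hairpins.

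**Figure D3:**
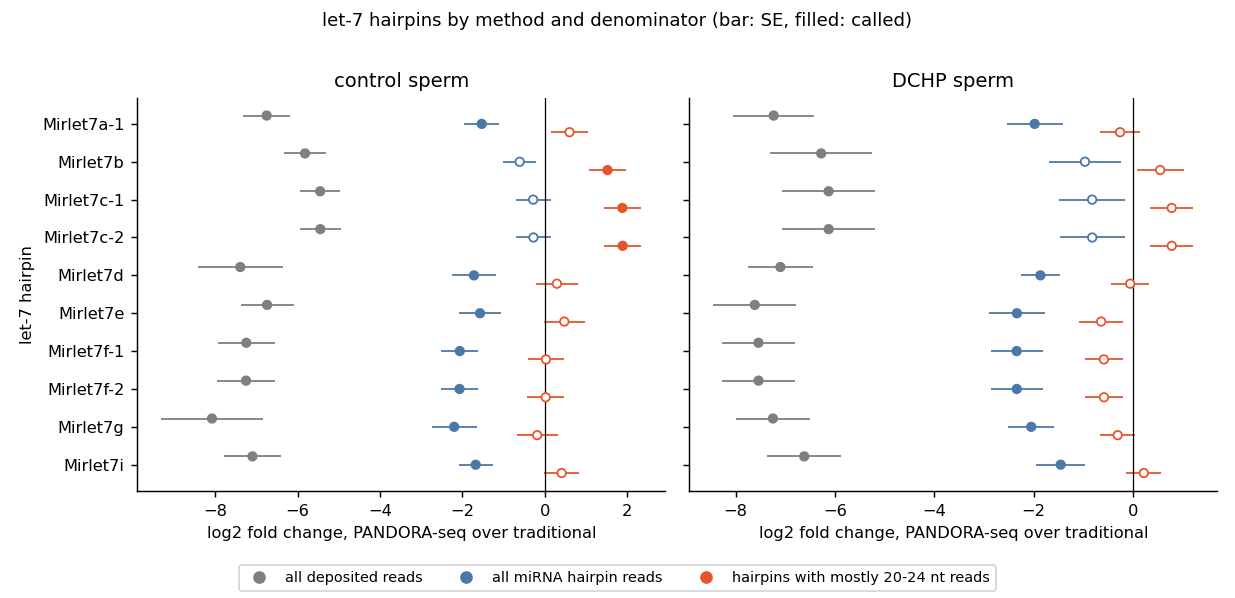
log2 fold change of each let-7 hairpin between methods, PANDORA-seq over traditional, in control and DCHP sperm under 3 denominators. Bars are SE and filled points are called. Every point of the total of all deposited reads lies below -5, while with hairpins of mostly 20 to 24 nt reads 9 of 10 points in control sperm lie above 0.

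With all deposited reads as library size, all 10 members were called lower in both groups, beside 73.2% of hairpins in control and 75.8% in DCHP sperm, and the members' log2 fold changes ran from -8.08 for Mirlet7g to -5.45 for Mirlet7c-1 and Mirlet7c-2 in control sperm. With the second denominator the direction turned for 9 of 10 members in control sperm. Mirlet7c-2 was then at 1.89, Mirlet7c-1 at 1.88 and Mirlet7b at 1.52 (SE 0.44, edgeR adjusted p = 0.00398), the 3 called higher, beside 44.9% of hairpins, and none was called lower, beside 5.25%. In DCHP sperm none of the 10 was called with that denominator, beside 39.1% of hairpins called higher and 1.06% called lower, at log2 fold changes of -0.64 to 0.79. Leaving out traditional DCHP library 5 made that 3 calls, Mirlet7b, Mirlet7c-1 and Mirlet7c-2, all higher, beside 45.2% of hairpins, and leaving out PANDORA-seq DCHP library 2 made it 1, Mirlet7e, lower at -1.05, beside 1.87%. The median over all hairpins in control sperm moved from -6.14 with all deposited reads to -1.02 and 1.1 with the other denominators. Under each of the 3, Mirlet7b and the Mirlet7c hairpins had the 3 highest values among the members in both groups.

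Relatives were counted from a list of 11 hairpins drawn up by name as kin or cluster neighbours of let-7 (Mirlet7a-2, Mirlet7j, Mirlet7k, Mir98, Mir202, Mir99a, Mir99b, Mir100, Mir125a, Mir125b-1 and Mir125b-2). It does not follow the seed strictly, since Mir1961 carries the seed and is not on it. 9 were in the annotation and 8 passed the filter on low counts in the comparisons of methods. In control sperm 6 of the 8 were called lower with PANDORA-seq, beside 39.9% of hairpins, and in DCHP sperm 8 of 8, beside 42.6%. Mirlet7a-2 was among those called in both groups. It shares the let-7a reads with Mirlet7a-1, so its call is not separate from that of the member. Mir100, a neighbour of Mirlet7a-2 in a cluster, was at -2.51 (SE 0.49) in control and -2.49 (SE 0.32) in DCHP sperm, and Mir99b, a neighbour of Mirlet7e, at -2.49 (SE 0.52) and -1.89 (SE 0.36). Mir98, which shares the seed and lies near Mirlet7f-2, was at -1.72 and -2.37. With the second denominator none of the 8 was called lower in either group, beside 5.25% of hairpins in control and 1.06% in DCHP sperm, and Mir125a, Mir125b-1 and Mir125b-2 were called higher in control sperm, beside 44.9%.

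The 5' ends of let-7 reads were nearly fixed, so the seed was kept. Of all let-7 5p reads, 99.6% to 99.9% started at the annotated first base in PANDORA-seq libraries and 99.7% to 99.8% in traditional libraries. The share of starts at the first base was tested with limma on log2 odds, adding 0.5 reads, for mature miRNAs with at least 50 reads in every library. In control sperm it was called lower with PANDORA-seq at an adjusted p below 0.05 for 4 of 6 let-7 miRNAs (let-7a, let-7b, let-7f and let-7i), beside 66.7% of the 15 miRNAs tested, and in DCHP sperm for let-7b alone, beside 30% of 20. The test is bounded by the number of reads. Once 0.5 reads are added, the 55 reads of let-7i in PANDORA-seq control library 1 allow a share of at most 99.1%, and the 54.5 reads of let-7b in PANDORA-seq DCHP library 3 likewise 99.1%. Before that addition let-7i started at the first base in 100% of reads in each of the 4 PANDORA-seq control libraries and in 99.7% to 99.9% in traditional control libraries, so its call goes against its own shares. The start calls are therefore not read as a difference in starts. With the replicate number as a block, let-7f in control sperm no longer passed (limma adjusted p = 0.0577) and let-7i in DCHP sperm did (limma adjusted p = 0.0415).

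The 3' end fell most often 1 nt before the annotated last base. For every member the most common read was the first 21 nt of the mature sequence, which for let-7f, the most abundant in traditional libraries, reads:
let-7f-5p, 21 nt: ugagguaguagauuguauagu

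Reads that ended 1 nt short made up 65.1% ± 2.58 (SD, n = 9) of let-7 5p reads with PANDORA-seq and 63.6% ± 1.21 (SD, n = 10) with traditional RNA-seq. Ends at the annotated last base made up 18.7% ± 2.10 and 17.1% ± 0.901. The members differed in this. Over traditional libraries the 1 nt short form was 72.4% ± 5.11 of let-7i reads, 70.6% ± 1.17 of let-7g, 65.8% ± 0.984 of let-7f and 64.9% ± 0.903 of let-7c. It was 60.8% ± 0.896 of let-7a, 55.8% ± 3.05 of let-7d, 49.2% ± 2.28 of let-7e and 42.0% ± 1.95 of let-7b (SD, n = 10 for each). Ends 2 nt short or more, as far as reads of 20 to 24 nt hold them, made up 19.8% ± 0.661 of let-7a reads and 5.29% ± 0.848 of let-7i reads. Reads of 15 to 19 nt, which hold the shorter forms, made up 8.70% to 14.6% of exactly matching let-7 reads by library and are not in these shares. let-7b had the most ends beyond the annotated last base, 11.8% ± 1.11 with traditional RNA-seq and 14.7% ± 3.06 with PANDORA-seq, where let-7f had 0.363% ± 0.0371 and 0.347% ± 0.219.

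**Figure D4:**
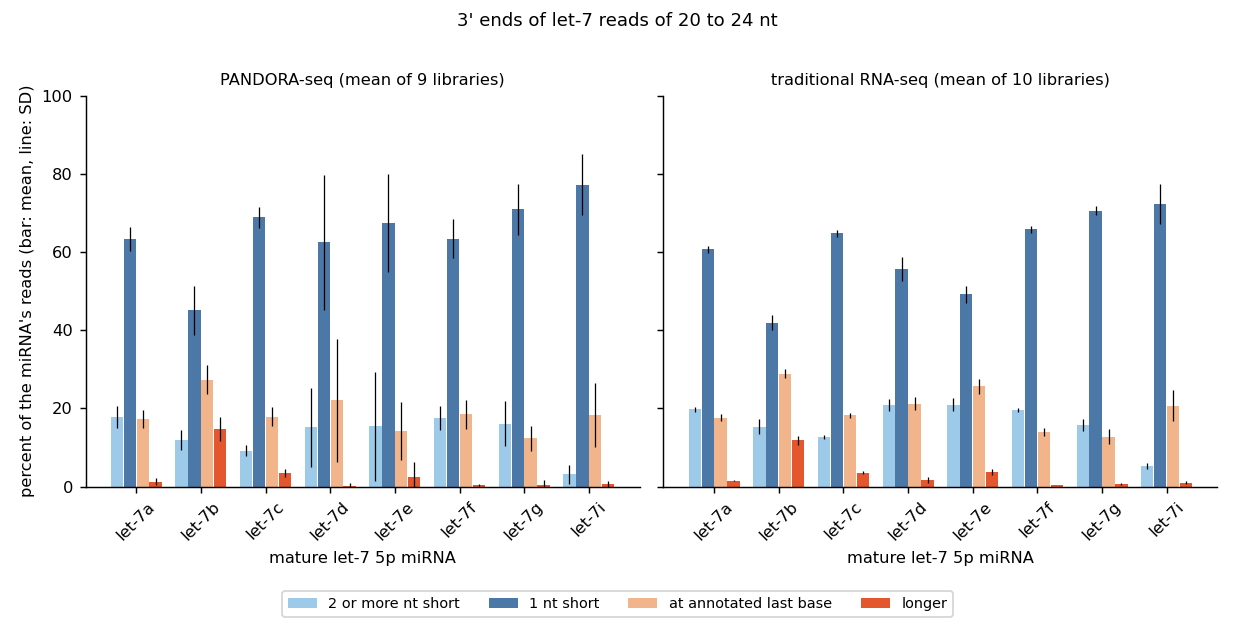
3' ends of the reads of each let-7 5p miRNA as mean percent of its reads over the 9 PANDORA-seq and 10 traditional libraries, with SD, among reads of 20 to 24 nt. The 1 nt short form leads for every member, and let-7b has the most reads longer than annotated.

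let-7b also stood out in its last base, in part through the same reads. A read past the annotated end with an unmatched last base counts both here and among the longer ends above. A last base that did not match the hairpin was seen in 8.73% of its traditional reads and 9.03% of its PANDORA-seq reads, and in 0.447% to 2.38% of the reads of the other members, where let-7d had 0 such reads among 194.5 by PANDORA-seq. The unmatched base of let-7b was A in 82.6% of such reads with traditional RNA-seq and 79.9% with PANDORA-seq. Whether it was added or misread was not tested. The 2 most common forms, shown with the unmatched base in capitals, made up 54.7% and 19.6% of the let-7b reads with an unmatched last base.
let-7b-5p, 23 nt: ugagguaguagguugugugguuA
let-7b-5p, 22 nt: ugagguaguagguugugugguA

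The share of let-7b reads with an unmatched last base was 10.5% ± 3.20 (SD, n = 4) in PANDORA-seq control, 8.78% ± 0.969 (SD, n = 5) in PANDORA-seq DCHP, 8.67% ± 0.923 (SD, n = 5) in traditional control and 8.89% ± 0.800 (SD, n = 5) in traditional DCHP libraries. It did not pass the limma test in any comparison, and no let-7 member did for this share. Between methods 13.3% of 15 miRNAs passed in control and 0% of 20 in DCHP sperm, where limma gave 2 at an unadjusted p below 0.05.

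Between methods, the share of reads that ended at the annotated last base passed the test for 1 of 6 let-7 miRNAs, let-7f in DCHP sperm, beside 15% of 20 miRNAs called higher. It was 18.1%, 18.3%, 17.7%, 14.3% and 22.7% in PANDORA-seq DCHP libraries 1 to 5 and 12.8%, 15.2%, 12.9%, 13.4% and 15.6% in traditional DCHP libraries. The log2 odds were higher with PANDORA-seq by 0.45 (SE 0.14, limma adjusted p = 0.0285). PANDORA-seq was higher in each of the 5 same-numbered pairs, but PANDORA-seq library 4 lay within the traditional range. The call was lost without any one of 7 of the 10 libraries, at differences of 0.35 to 0.46. In control sperm the difference was 0.49 (SE 0.21, limma adjusted p = 0.15) and was not called, beside 6.67% of 15 miRNAs called higher. Without PANDORA-seq control library 2 it was called, at 0.68.

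The 3p strands were rare. They gave 36 reads over the 9 PANDORA-seq libraries, 0.101% of let-7 reads assigned to a mature strand, and 4232 over the 10 traditional libraries, 0.114%. let-7d-3p led in both, with 20 and 1682 reads, although let-7d-5p was among the 2 least abundant 5p strands. Exactly matching reads of 15 to 19 nt made up 11.9% ± 1.14 (SD, n = 4) and 12.4% ± 1.85 (SD, n = 5) of all let-7 reads of any length with PANDORA-seq, control and DCHP in turn, and 10.8% ± 1.24 and 11.3% ± 0.417 (SD, n = 5 for each) with traditional RNA-seq.

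One mismatch inside the seed was seen mainly in traditional libraries, in let-7 and in other miRNAs. The change A7C was carried by 0.977% to 1.11% of let-7 5p reads that started at the first base in traditional libraries, and by 0 to 0.0250% in PANDORA-seq libraries. In other miRNAs with A at base 7 it was 0.549% to 0.876% in traditional libraries and 0 in all PANDORA-seq libraries. The PANDORA-seq share of the other miRNAs rests on 10314 reads over the 9 libraries. A-to-C changes in other miRNAs were also more frequent in traditional than in PANDORA-seq libraries at base 2, at 0.597% against 0.0241%, at base 4, at 0.583% against 0, at base 9, at 0.316% against 0.0148%, and at base 11, at 0.667% against 0.00845%. At the other bases from 3 to 18 they made up at most 0.134% with either method. The cause was not tested.

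Exposure to DCHP gave no call among the let-7 hairpins with either method. With PANDORA-seq 0 of 10 members were called, beside 0% of the 180 hairpins tested. edgeR gave 7 hairpins and no member at an unadjusted p below 0.05, and DESeq2 called 0. With traditional RNA-seq 0 of 10 were called, beside 0% of 418 hairpins. There edgeR gave 24 hairpins and no member at an unadjusted p below 0.05, and DESeq2 called 2 hairpins, no member among them, with size factors from hairpin totals.

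Scaled to hairpin totals, Mirlet7i had the largest difference by PANDORA-seq. It was 1.63, 2.80, 2.03 and 1.91 per 1000 hairpin reads in control libraries 1 to 4 and 1.59, 3.15, 1.197, 3.12 and 8.29 in DCHP libraries 1 to 5. The log2 fold change, DCHP over control, was 0.73 (SE 0.54, edgeR adjusted p = 0.953), with overlapping groups. It was 0.11 without PANDORA-seq DCHP library 5, 0.32 with the second denominator, where Mirlet7e was at -0.54, and 0.025 with the replicate number as a block. That block pairs control and DCHP libraries by number only. PANDORA-seq DCHP library 5 has no control library of its number, so it does not enter the value with the block. In traditional libraries Mirlet7i was 6.77, 6.94, 6.45, 7.16 and 6.14 in control and 8.23, 7.89, 8.52, 10.3 and 12.5 in DCHP libraries. The log2 fold change there was 0.51 (SE 0.29, edgeR adjusted p = 0.825) and did not pass the test. It was 0.096 with TMM scaling and 0.155 with DESeq2's own size factors. The summed germ cell and epididymal markers also ran higher in DCHP libraries, with overlap. The other lists were mixed in traditional libraries. Their medians per 1000 reads of the second denominator, control and DCHP in turn, were 44.8 and 40.5 for Mir122 of liver. They were 0.110 and 0.151 for blood and 51.3 and 62.0 for muscle markers. For each of these lists the highest traditional library was a control. With PANDORA-seq the muscle markers also ran higher in DCHP libraries, at 11.0 to 28.0 in control and 16.2 to 89.7 in DCHP sperm. Their medians there were 16.4 and 30.7. The PANDORA-seq medians were 47.6 and 50.2 for Mir122 and 0.0675 and 0.0724 for blood markers. In traditional libraries the 5 germ cell markers were 0.767 to 3.69 per 1000 reads of the second denominator in control and 3.05 to 6.54 in DCHP sperm, and the 5 epididymal markers 6.03 to 21.3 and 17.8 to 47.5, with no marker of either list at 0 in a whole group. In PANDORA-seq libraries the germ cell and epididymal sums were 1.58 to 3.60 and 2.90 to 5.83, and 9.78 to 12.5 and 9.84 to 39.5. The part of any of these lists in the Mirlet7i values was not tested.

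The other members ranged from -0.18 for Mirlet7e (SE 0.68) to 0.34 for Mirlet7b (SE 0.74) with PANDORA-seq and from -0.16 for Mirlet7g (SE 0.40) to 0.70 for the Mirlet7c hairpins (SE 0.44 and 0.43) with traditional RNA-seq. Mirlet7c-1 was 17.6, 23.7, 7.90, 16.6 and 50.1 per 1000 hairpin reads in traditional DCHP libraries, above the control range only in libraries 2 and 5. The members' median log2 fold change was 0.17 with PANDORA-seq and 0.53 with traditional RNA-seq, beside 0.06 and 0.17 over all hairpins tested. None of these differences passed the test. With the second denominator the PANDORA-seq values were below 0 for 9 of 10 members, 6 of which were above 0 with hairpin totals. Under both, Mirlet7i was above 0 and Mirlet7e was below it. Mirlet7d and Mirlet7g were below 0 under both as well, but with hairpin totals only at -0.0060 (SE 0.56) and -0.00095 (SE 0.58), which shows no direction.

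**Figure D5:**
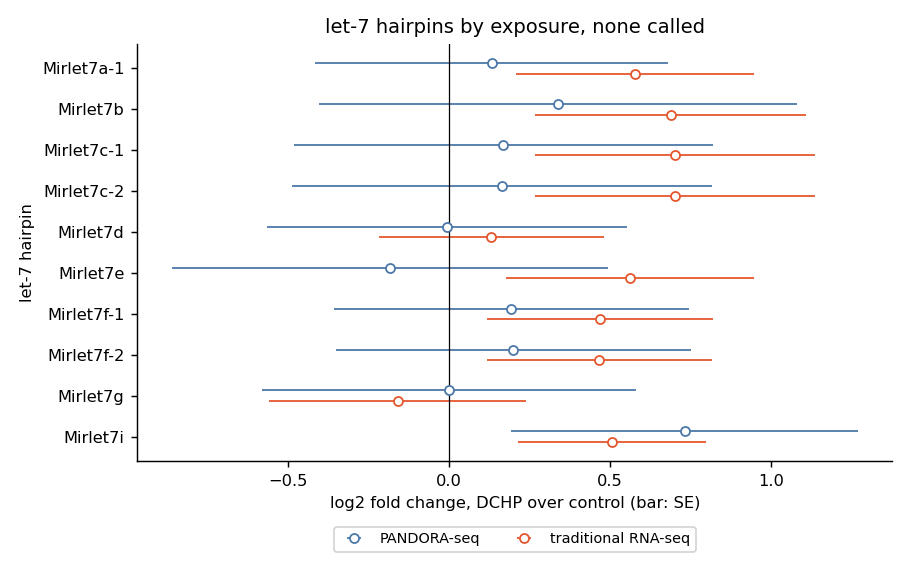
log2 fold change of each let-7 hairpin, DCHP over control, for each method, with SE. No member was called. 7 of 10 PANDORA-seq and 9 of 10 traditional values lie above 0.

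A test of whether the exposure difference itself differed between the methods called 0 of 10 members, beside 0% of 176 hairpins, at differences of -0.76 to 0.23 on the log2 scale. With the second denominator the differences of all 10 were below 0, from -1.11 to -0.12, and again 0 were called. edgeR gave 3 hairpins and no member at an unadjusted p below 0.05 there. No let-7 miRNA passed the limma test for its 5' starts, 3' ends or unmatched last bases between DCHP and control, beside 0% of 15 miRNAs with PANDORA-seq and 0% of 116 with traditional RNA-seq. For starts, ends and last bases in turn, limma gave 0, 2 and 1 of the 15 and 4, 4 and 9 of the 116 at an unadjusted p below 0.05. One of the 2 PANDORA-seq ends was that of let-7g, whose log2 odds of ending at the annotated last base differed by -0.59 between DCHP and control (SE 0.19, limma unadjusted p = 0.0106, adjusted p = 0.159). Of the related hairpins, 0 of 6 with PANDORA-seq and 0 of 8 with traditional RNA-seq were called by exposure.

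The levels of most let-7 members moved together between libraries. After group means were subtracted, the log2 level of each member with at least 50 reads in every library was compared with the let-7 sum over 19 libraries, as a description. Pearson's r was 0.98 for Mirlet7a-1 and Mirlet7b, 0.97 for both Mirlet7c hairpins, 0.93 for both Mirlet7f hairpins, 0.80 for Mirlet7i and 0.41 for Mirlet7g. Each of these is part of the sum. Of 24 hairpins outside the list, Mirlet7a-2 was the most alike at 0.98, since it shares the let-7a reads, followed by Mir143 at 0.61, Mir320 at 0.60, Mir148a at 0.55 and Mir10a at 0.51, with a median of 0.27. All values share the same denominator. With the second denominator Mirlet7g was at -0.22, Mirlet7i at 0.36, and the closest hairpins after Mirlet7a-2 were Mir5099 at 0.42 and Mir320 at 0.38.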

How the data were processed

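Each of the 19 deposited tables lists distinct reads of 15 to 45 nt with a read count, made by the authors from cleaned reads and not normalized, with trimming settings not given in the sources used here. The labels name the build mm10, and the study's methods name SPORTS as the annotation software, with 1 mismatch allowed. From these counts, reads of 20 to 24 nt were matched to 2198 GENCODE vM21 miRNA hairpins, 4 hairpins that hold a tRNA being left out. Exact matches were taken first, then matches with 1 mismatch, and shared reads were divided equally. Levels and calls came from edgeR 4.0.16 (glmQLFit, glmQLFTest), with divided reads rounded, all hairpin reads as library size and hairpins with at least 10 reads in at least 4 libraries. End shares came from limma 3.58.1 on log2 odds with 0.5 reads added, for miRNAs with at least 50 reads in every library. DESeq2 1.42.0, other library sizes, filters, read lengths and left-out libraries were tried as alternatives. The fits were tested on simulated data.

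The named genes are all 10 members and their mature sequences, the related list as counts with values for those past a test, and the 5 hairpins most like the summed level. Members, lists and tests were chosen with earlier results of these data known. Libraries were grouped by their titles. Library totals, 21588335 to 56506344 reads, set the precision, and reads carry no molecular identifiers. No 2 libraries of a group agreed within sampling noise (smallest chi-square per degree of freedom 14.0 over 36 pairs). No source states that replicate numbers pair the methods. Between methods, deviations from group means of same-numbered libraries correlated at 0.31 to 0.73 in 4 control pairs. In 5 DCHP pairs the correlations were 0.44 to 0.57. They ran over hairpins with at least 10 reads in each library. The closest match was the same-numbered library in 3 of 4 control and 5 of 5 DCHP pairs. Mature sequences matched RefSeq for 10 of 10 members.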

Additional observations from a re-analysis of the deposited data

Results flagged for a closer look

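In each group the highest or lowest library was compared with the others by Dixon's test at 95%, over 96 sets of values, of which 9 stood apart. Chance alone sets about 1 in 20 such groups apart. PANDORA-seq control library 2 was apart in let-7d, at 0.742 per 1000 hairpin reads and 1.59% of let-7 5p reads, and in let-7g, at 5.07 per 1000 hairpin reads. Traditional control library 2, of the same number, was apart in let-7c, at 14.6% of let-7 5p reads. PANDORA-seq DCHP library 5 was apart in let-7i, at 8.29 per 1000 hairpin reads, and traditional DCHP library 5 in let-7d, at 1.997 per 1000 hairpin reads. Mir6240 made up 27.8% of the hairpin reads of PANDORA-seq DCHP library 5, the lowest of its group. PANDORA-seq DCHP library 3 was apart in let-7d, at 1.34% of let-7 5p reads, and PANDORA-seq DCHP library 2 in let-7e, at 0.778%. Traditional control library 4 was apart in let-7a, of which 19.3% of reads ended at the annotated last base. The let-7d and let-7e values of PANDORA-seq libraries rest on few reads, as few as 7 and 4 in a library.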

How the results depend on the processing

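Of 1271 recomputed values, 1106 kept their direction and their side of the threshold. Calls are counted as in the report.

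By exposure, no alternative called a let-7 member. In traditional libraries 1 hairpin was called with exact matches only and 2 with DESeq2 and size factors from hairpin totals. In PANDORA-seq libraries the sign of small log2 fold changes turned with the processing. With TMM scaling Mirlet7a-1 was at -0.021, Mirlet7c-1 at -0.0019 and Mirlet7c-2 at -0.0061, and with DESeq2's own size factors -0.042, -0.016 and -0.020, with Mirlet7f-1 at -0.0035. With the 20-24 nt hairpin total Mirlet7a-1 was at -0.27, Mirlet7b at -0.28, Mirlet7c-1 at -0.39, Mirlet7c-2 at -0.40, Mirlet7f-1 at -0.14 and Mirlet7f-2 at -0.13. With the replicate block, where the pairing was by number only (correlations -0.31 to 0.35 in PANDORA-seq and -0.41 to 0.071 in traditional pairs), these were -0.55, -0.82, -0.76, -0.76, -0.32 and -0.31, and traditional Mirlet7g 0.050. Mirlet7d was at 0.093 with all deposited reads, 0.19 with hairpin reads of any length, 0.030 with exact matches and 0.0018 with 18-26 nt reads, and Mirlet7g at 0.17, 0.22 and 0.072 with the first, the second and the last of these. In traditional libraries Mirlet7d was at -0.43 with TMM, -0.20 with all deposited reads and -0.35 with DESeq2's own size factors. Mirlet7g was at -0.84, -0.66 and -0.74 there with these settings in turn.

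Leaving out 1 library in turn moved the PANDORA-seq exposure values from -0.35 to 0.39 for Mirlet7a-1, -0.37 to 0.64 for Mirlet7b, -0.47 to 0.45 for Mirlet7c-1, -0.47 to 0.44 for Mirlet7c-2, -0.36 to 0.61 for Mirlet7d, -0.62 to 0.10 for Mirlet7e, -0.22 to 0.45 for Mirlet7f-1, -0.22 to 0.46 for Mirlet7f-2 and -0.49 to 0.67 for Mirlet7g. In traditional libraries Mirlet7d ran from -0.093 to 0.40 and Mirlet7g from -0.35 to 0.33.

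Between methods in control sperm, 3 members were called higher with the 20-24 nt hairpin total, also with the replicate block added, beside 44.9% and 46.9% of hairpins. That total gave Mirlet7a-1 0.60, Mirlet7b 1.52, Mirlet7c-1 1.88, Mirlet7c-2 1.89, Mirlet7d 0.29, Mirlet7e 0.47, Mirlet7f-1 0.026, Mirlet7f-2 0.019 and Mirlet7i 0.41, and with the block, an alternative chosen after seeing the data, 0.67, 1.58, 1.95, 1.96, 0.29, 0.50, 0.070, 0.063 and 0.38. Reads of 1 hairpin only gave Mirlet7c-2 0.15 and Mirlet7f-1 0.084. These values rest on few reads, as the 2 hairpins had 53 and 5 such reads over all PANDORA-seq libraries, control and DCHP together. All hairpins called were 566 without the low-count filter, 139 with reads of 1 hairpin only and 134 with mature miRNAs as features. In DCHP sperm that total called 0 members, with or without the block, beside 41.2% and 40.2% of hairpins in either direction, and 0 to 3 when libraries were also left out, chosen after seeing the data, beside 39% to 47%. It gave Mirlet7b 0.55, Mirlet7c-1 0.78, Mirlet7c-2 0.79 and Mirlet7i 0.22, and 0.58, 0.90, 0.91 and 0.22 with the block. Hairpins called there were 151 with that total, 155 with the block added, 575 without the filter, 155 with reads of 1 hairpin only and 157 with mature miRNAs. Left-out libraries gave 7 to 10 members in DCHP sperm, beside 36.9% to 50.9% of hairpins called lower. The replicate block also moved the start calls of let-7f in control and let-7i in DCHP sperm, as given in the report, and changed no other member's call than those in the report.

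miRNAs called for end shares in control sperm were 5 with a minimum of 20 reads, 1 with the replicate block and 2 to 5 with libraries left out, and for unmatched last bases 1 to 3. In DCHP sperm starts gave 14 with a minimum of 20 reads and 10 with 18-26 nt reads, and ends 2 with 18-26 nt reads, 4 with the block and 3 to 8 with libraries left out. By exposure PANDORA-seq ends gave 0 to 1. Fewer or more miRNAs were tested under the read minima. For the other changes the cause was not tested. Depth limits let-7d and let-7e in PANDORA-seq most.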
